A study of Rattus norvegicus with 18 samples.

Results

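Described here are 35 genes of mitosis and cytokinesis, a list chosen by function and found by symbol in a table of 19880 rat genes. The list was drawn up with earlier results of these data known. All 35 were in the table, and all 35 passed the filter on low counts that left 14870 genes for testing. RNA had been sequenced from ventricular cardiomyocytes of Sprague-Dawley rats taken on postnatal day 2 and pre-plated to remove other cell types. Every group had received phenylephrine, an alpha-1 adrenergic agonist that makes cardiomyocytes grow, at 20 µM for 24 h, so none of the 6 groups was free of it. In 3 groups an adenovirus carried sORF6, sORF7 or sORF8, each a short open reading frame, and in the other 3 groups the cells received the control virus of 1 sORF. Each group had 3 libraries, 18 in all. Nothing in the labels tells whether replicate libraries were separate cultures, so the p-values given measure spread among libraries alone, and that spread may be technical. The labels used here name neither the peptides nor the content of the control viruses.

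A dividing cell enters mitosis when cyclin A and cyclin B activate the kinase CDK1, and it leaves when the anaphase-promoting complex has its cyclins and its securin destroyed. Between these steps the chromosomes condense, kinetochores take hold of spindle microtubules, a checkpoint holds back anaphase until all are attached, and a ring of actin and myosin splits the cell in cytokinesis. Most genes of this machinery are transcribed in G2 and M phase and are held silent in resting cells by the DREAM complex, with B-MYB and FOXM1 acting at the same promoters in dividing cells. Rodent cardiomyocytes still divide around birth and leave the cell cycle in the first postnatal days, when many replicate their nucleus without cytokinesis and become binucleate. RNA levels in bulk cultures do not tell which cells carried the transcripts.

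Promoter sequence was looked at because DREAM and MuvB complexes reach these promoters through the cell cycle genes homology region (CHR), whose usual letters are TTTGAA in most genes described with it and TTTAAA in others, often with CCAAT boxes, the motif of NF-Y, further upstream. RefSeq windows of 300 bases ran from 250 before to 50 after the annotated start on build GRCr8. Where a gene had several windows, only the first listed was used. Windows were matched by gene ID and symbol for 30 of the 35 genes. Those without a match were Aurkb, Ccna2, Racgap1, Tpx2 and Ube2c. The last 100 bases before the start are shown for 7 genes that carry a result or stand for a role: the cyclin Ccnb1, the kinases Plk1 and Melk, Bub1 of the checkpoint, Cdc20 of anaphase, Top2a of chromosomes and Anln of cytokinesis. Capitals mark these CHR letters and the CCAAT box in either orientation, so that TTCAAA is a CHR match read on the other strand, and ATTGG a box read on the other strand.
Ccnb1, chr2:33655226-33655325, minus strand: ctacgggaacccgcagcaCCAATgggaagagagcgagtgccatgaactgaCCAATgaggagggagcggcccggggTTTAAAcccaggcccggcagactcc
Plk1, chr1:186147558-186147657, plus strand: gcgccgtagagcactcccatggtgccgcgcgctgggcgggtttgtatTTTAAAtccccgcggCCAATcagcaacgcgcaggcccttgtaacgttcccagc
Bub1, chr3:135504922-135505021, minus strand: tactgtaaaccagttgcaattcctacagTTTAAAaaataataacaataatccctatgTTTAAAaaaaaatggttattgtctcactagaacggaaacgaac
Cdc20, chr5:137255800-137255899, minus strand: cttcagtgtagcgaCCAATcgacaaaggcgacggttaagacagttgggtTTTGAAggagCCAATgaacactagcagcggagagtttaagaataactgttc
Top2a, chr10:84473094-84473193, minus strand: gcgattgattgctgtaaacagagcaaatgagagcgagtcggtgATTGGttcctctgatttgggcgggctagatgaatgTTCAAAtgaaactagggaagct
Anln, chr8:29197514-29197613, minus strand: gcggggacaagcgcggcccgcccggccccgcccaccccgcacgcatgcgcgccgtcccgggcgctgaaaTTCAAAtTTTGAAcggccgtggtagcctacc
Melk, chr5:63336051-63336150, plus strand: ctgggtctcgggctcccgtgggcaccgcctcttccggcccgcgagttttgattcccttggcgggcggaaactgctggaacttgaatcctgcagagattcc
Each of these stretches except that of Melk holds 1 or more matches.

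Over the whole windows and both strands, TTTGAA was found in 22 of the 30 (73.3%), against 18.1% of the 27457 genes with a window and 11.7% of the 11467 tested genes with one. TTTAAA, which reads the same on both strands, was found in 12 of the 30, against 13.5% and 9.03%. CCAAT was found in 22 of the 30, against 37.7% and 37.6%. At least 1 of the CHR forms was present in 29 of the 30 (96.7%), the exception being Melk, against 27.9% and 19.1%. A CHR form together with CCAAT was present in 22 of the 30, against 11.1% and 7.46%. Matches may overlap, each window was counted once per motif, and a match is a run of letters and not a measured binding site.

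Depth ran from 15697177 to 17658137 estimated counts per library, and the 6 libraries of the sORF8 experiment were the 6 shallowest. Markers of the labelled cell type were abundant in every library, with cardiac actin Actc1 between 10091 and 16689 FPKM (fragments per kilobase of transcript, scaled to library size). All 12 cardiomyocyte markers were measured, and together they reached 25278 to 39682 FPKM. Other cells of the heart were present too, as the 12 fibroblast markers summed to 1541 to 1839 FPKM, with Col1a1 at 827.1 to 988.8. The 10 markers of smooth muscle and pericytes summed to 2691 to 3257 FPKM, much of it from Des (904.5 to 1163) and Acta2 (817.8 to 1334). On the same list Myh11 lay between 9.70 and 15.7 FPKM, Rgs5 between 0.550 and 2.74 and Kcnj8 between 0.290 and 1.17. The sum therefore does not tell how many such cells were present. Markers of 3 other cell types were low: endothelial Pecam1 lay between 0.740 and 1.38 FPKM, leukocyte Ptprc between 0.990 and 1.90, and epicardial Wt1 between 0.670 and 1.27. Emcn, Vwf, C1qb and Cd163 stayed under 0.5 FPKM in all 18 libraries.

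Ranked per length, the mitotic genes spanned a wide range of levels. Anln, the actin-binding scaffold of the contractile ring, was the most abundant with a mean of 30.5 FPKM over the 18 libraries (lowest 26.0, highest 35.2). Prc1, which bundles the microtubules of the central spindle, followed at 26.2, then Cdk1 at 21.2 and Ube2c, the ubiquitin-conjugating enzyme that serves the anaphase-promoting complex, at 20.8. At the other end stood the kinetochore proteins Cenpe and Cenpf, at 2.98 and 2.57 FPKM, and the cyclin gene Ccnb2 at 1.72. The ranges of neighbours in this order mostly overlapped over the 18 libraries, for example those of Cdk1 (15.1 to 28.9 FPKM) and Ube2c (13.8 to 27.2). The median member, Kif23, stood at the 60.8th percentile of all 19880 genes by mean FPKM. Mki67, the gene of the proliferation antigen Ki-67, averaged 12.3 FPKM, close to the 12.6 of Top2a, the topoisomerase that untangles sister chromatids.

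Some members are measured less securely than others. Ccnb2 had 10 to 76 estimated counts per library, all fractional, and the table holds a cyclin B2-like locus, LOC100364016, whose reads may not be separable from it, so its values are uncertain. Racgap1 likewise has a listed copy, LOC103690014, and fractional counts in 11 libraries. Fractional counts in 17 or 18 libraries were also seen for Ccnb1, Ccna2, Cdc25c, Anln, Mki67 and Kif20a. Cdc20, Cdc25c, Hmmr, Kif20a, Kif23, Ndc80 and Prc1 overlap another gene on their own strand in the table's Rnor_6.0 positions. Ccnb2, Ccna2, Cdc25c, Aurka, Nusap1, Anln, Kif20a and Pttg1 overlap one on the other strand, and the sources do not state whether strand was used in counting.

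**Figure D1:**
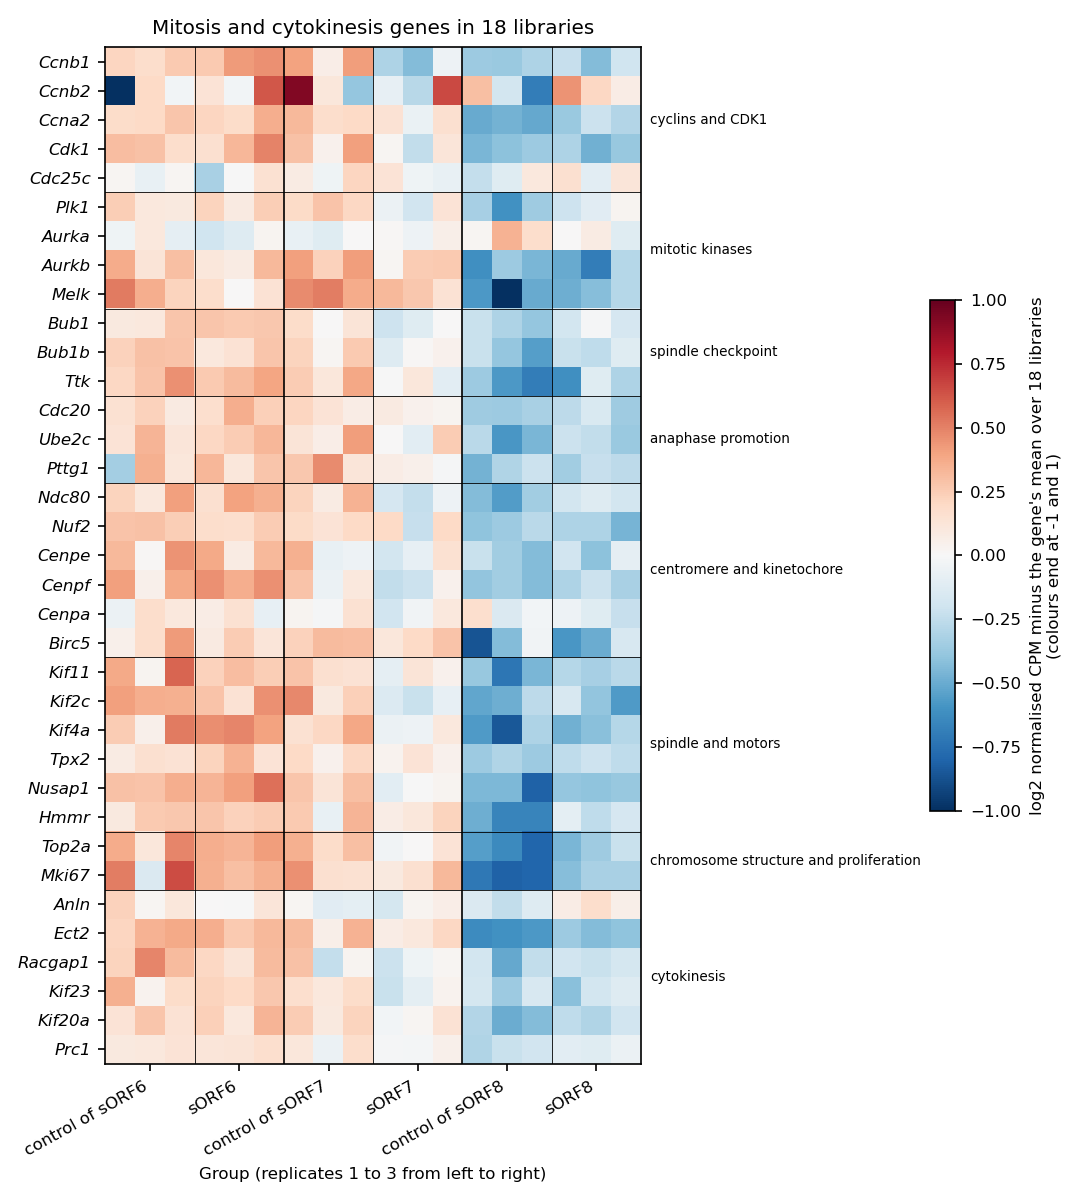
Level of each of the 35 genes (rows, grouped by role) in the 18 libraries (columns, by group), as log2 normalised CPM minus the gene's mean over the libraries. The 6 columns of the sORF8 experiment on the right are blue for most genes, and the sORF7 columns are paler than those of their control.

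The first question was whether sORF6 changed the mitotic genes relative to its own control virus. None of the 35 genes passed the threshold in either direction. Of all genes tested, 3.85% did, with 0.968% higher and 2.88% lower. The 35 genes summed to 1117, 1113 and 1175 normalised CPM (counts as a share of the library, scaled by TMM) with sORF6, and to 1156, 1046 and 1193 with its control, so the ranges overlapped. The median log2 fold change of the 35 was 0.03, with 20 above 0 and 15 below, and that of all genes was 0.00. At an unadjusted p under 0.05 the count was again 0 of 35 by edgeR, where 15.2% of all genes passed, and DESeq2 and limma also called none at their adjusted threshold.

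By unadjusted p the nearest to a change was Melk, a kinase of the AMPK family that peaks in mitosis. It had 12, 10.6 and 11.7 normalised CPM with sORF6 and 15.2, 13.6 and 12.4 with the control. All sORF6 libraries lay below all controls, and the log2 fold change was -0.26 ± 0.13 (SE, n = 3 per group; edgeR adjusted p = 0.348). Only Melk was lower without overlap and only Ccnb1 was higher without overlap among the 35, where 10.6% and 10.0% of all genes were. Ccnb1, cyclin B1, had 23.0, 25.7 and 26.3 with sORF6 against 22.2, 21.6 and 23.0 CPM, and the nearest libraries both read 23.0 (log2 0.17 ± 0.10, edgeR adjusted p = 0.43).

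Tpx2, a microtubule-nucleating factor that activates Aurora A, had 40.4, 43.9 and 38.0 CPM with sORF6 and 36.5, 38.5 and 38.1 with the control. Cdc20, the activator of the anaphase-promoting complex, had 25.3, 29.1 and 26.6 against 25.1, 26.5 and 24.0. Both pairs of groups overlapped. Cdk1 read 27.3, 30.7 and 34.4 with sORF6 against 30.2, 30.0 and 27.6 CPM, and Plk1, the polo-like kinase of mitotic entry, 21.3, 19.4 and 21.7 against 21.6, 19.6 and 19.5. The chromosomal passenger kinase Aurkb had 16.4, 16.1 and 19.0 against 19.7, 16.6 and 18.7, and the central spindle motor Kif23 had 28.5, 28.0 and 29.5 against 31.2, 25.1 and 27.8. These 4 pairs overlapped as well. Anln, with 146.3, 145.1 and 158.9 against 171.0, 147.4 and 157.6 CPM, also overlapped (log2 -0.08 ± 0.06). The widest fold change was that of Ccnb2 (log2 0.61 ± 0.42), the gene with the fewest counts.

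Among the controls of sORF6, replicate 2 read lower than the others for the longest transcripts. Mki67 had 110.5 CPM there against 175.0 and 192.8 in replicates 1 and 3, while the sORF6 libraries had 156.6, 150.8 and 156.8. Top2a had 66.5 in that control library against 79.5 and 86.1 in the others, and 79.1, 77.7 and 82.0 with sORF6. The 10 members with an effective length of 4000 bases or more had a median log2 ratio of -0.33 to the other controls in replicate 2, and the 10 members under 2000 bases one of 0.13. Without this library the count of called members for sORF6 was still 0. In the sORF7 experiment a smaller gap by length was seen in 2 libraries, in opposite directions. The long members had a median of -0.16 in sORF7 replicate 1, where the short ones had -0.04. In control replicate 1 of sORF7 these medians were 0.12 and 0.00. Gaps were also seen in the sORF8 experiment. Long and short members had medians of 0.04 and -0.14 in sORF8 replicate 3, and of 0.11 and -0.08 in its control replicate 1. The part of length in the sORF7 and sORF8 comparisons was not tested.

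Genes of other lists did move with sORF6. All 18 interferon-stimulated genes listed were lower, with a median log2 fold change of -2.65 and sums of 251.6 to 284.6 CPM against 834.1 to 1216. Of all genes tested, 0.968% were higher and 2.88% lower. All gene lists used here were chosen with earlier results of these data known, so their counts describe and do not test. Of 8 leukocyte markers 2 were called lower, Adgre1 (log2 -0.61 ± 0.10, edgeR adjusted p = 5.11e-04) and Itgam (-0.83 ± 0.17, 0.00712), and none was called higher. Their sums were 119.4 to 132.7 CPM against 140.2 to 160.3. The list was split, with 5 estimates below 0 and 3 above. Those above were Lyz2 (0.23 ± 0.09, adjusted p = 0.232), Csf1r (0.29 ± 0.13, 0.29) and C1qa (1.64 ± 0.60, 0.164), each without overlap of the groups. Cardiomyocyte markers were higher in 2 of 12 and lower in 1, at 71924 to 75124 against 67371 to 72077 CPM, and fibroblast markers likewise in 2 and 1 of 12, at 8929 to 9448 against 7938 to 8747.

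With sORF7, 3 of the 35 genes fell and none rose relative to its control virus. Ccnb1, Ndc80 and Kif2c fell by 32.1%, 22.7% and 25.6% respectively. Of all genes tested, 7.77% were called, 3.66% lower and 4.12% higher. In 33 of the 35 the estimate was below 0, against 50.7% of all genes, with a median log2 fold change of -0.16 against -0.00. The 35 genes summed to 940.5, 968.0 and 1047 normalised CPM with sORF7 and to 1143, 1006 and 1088 with the control, overlapping ranges. In such bulk samples fewer dividing cells and less of this RNA per dividing cell cannot be told apart.

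Ccnb1, cyclin B1 (gene ID 25203, chr2:30782133-30791106, minus strand, Rnor_6.0), had 15.5, 14.2 and 18.5 normalised CPM with sORF7 and 25.3, 20.1 and 25.6 with the control. Every sORF7 library was below every control. The log2 fold change was -0.56 ± 0.10 (SE, n = 3 per group; edgeR adjusted p = 0.00122), and the gene was called in all 14 alternative fits, with an adjusted p of at most 0.0166. Ccnb1 is the partner that gives CDK1 its activity at mitotic entry.

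Ndc80, the kinetochore protein that binds microtubules (gene ID 301701, chr9:119837857-119871435, minus strand), had 16, 15.2 and 17.3 CPM against 20.9, 19.0 and 22.8. The groups did not overlap, and the log2 fold change was -0.37 ± 0.09 (SE, n = 3; edgeR adjusted p = 0.0141). Its call was lost without sORF7 replicate 1 (adjusted p = 0.0554), sORF7 replicate 2 (0.0677) or control replicate 3 (0.0718), and with limma on log2(FPKM + 1) (0.267) or log2(FPKM + 0.1) (0.268). Kif2c, a kinesin that takes microtubule ends apart to correct wrong attachments (gene ID 171529, chr5:136027923-136053268, minus strand), had 10.4, 9.79 and 10.8 CPM with sORF7. Its control libraries had 15.9, 12.2 and 13.5, all higher, and the log2 fold change was -0.43 ± 0.11 (SE, n = 3; edgeR adjusted p = 0.0272). That call was lost in 7 of the 14 alternatives. Leaving out sORF7 replicate 1, 2 or 3 gave adjusted p = 0.0785, 0.102 and 0.0508, and leaving out control replicate 1 gave 0.155. The others were limma at both pseudocounts (0.0599 and 0.0651) and a fit of only the 6 libraries (0.0635).

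The next by p was Nusap1, a spindle microtubule bundler, with 17.7, 19.0 and 19.4 CPM with sORF7 and 23.1, 20.9 and 23.5 with the control. It lay just outside the threshold (log2 -0.27 ± 0.08, edgeR adjusted p = 0.0509) and passed it without control replicate 2 (0.0414) and without the sORF8 experiment in the fit (0.0477). Plk1 had 17.5, 16 and 20.1 against 20.9, 22.3 and 21.1, and passed without sORF7 replicate 3 (0.0279 in place of 0.0818). Cdk1 had 24.8, 20.6 and 26.5 against 30.0, 25.1 and 32.4, with overlap, and passed without control replicate 2 (0.0315 in place of 0.102). Top2a, at 60.0, 61.6 and 67.6 against 78.7, 69.7 and 75.7, and Kif23, at 21.0, 22.9 and 25.0 against 27.4, 26.3 and 27.7, did not overlap, with adjusted p = 0.087 and 0.104 by edgeR. Control replicate 2 had the lowest value of its group for Ccnb1, Cdk1, Top2a and Kif23, and without it the count of called members was 5 in place of 3.

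Mki67 and Aurkb were not called with sORF7. Mki67 read 131.1, 137.0 and 153.3 CPM against 167.8, 136.8 and 135.7, and Aurkb 15.4, 18.1 and 18.2 against 20.2, 17.8 and 20.3, both overlapping. Anln, at 129.1, 148.9 and 152.8 against 147.7, 134.5 and 136.5, and Aurka, the centrosomal Aurora kinase, were the only 2 of the 35 with an estimate above 0 (log2 0.04 ± 0.06 and 0.07 ± 0.08). In all, 12 of the 35 were lower without overlap, where 11.3% of all genes were, and none was higher without overlap, where 11.7% were.

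By role, the 5 genes of cyclins and CDK1 had 1 call (Ccnb1), the 6 of centromere and kinetochore had 1 (Ndc80), and the 6 of spindle and motors had 1 (Kif2c). The 4 mitotic kinases, the 3 genes of the spindle checkpoint (Bub1, Bub1b and Ttk), the 3 of anaphase promotion (Cdc20, Ube2c and Pttg1), Top2a and Mki67, and the 6 of cytokinesis had none. Their medians ran from -0.12 for cytokinesis to -0.21 for the checkpoint. Other genes moved with this comparison, in which 4.12% of all genes were higher and 3.66% lower. All 18 interferon-stimulated genes listed were higher with sORF7, summing to 2734 to 3327 CPM against 1344 to 1542. Cardiomyocyte markers were lower in 4 of 12 and higher in none, at 57504 to 59099 against 64302 to 68416 CPM, and fibroblast markers lower in 3 of 12, at 7681 to 8031 against 8072 to 8999. Their part in the mitotic result was not tested.

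**Figure D2:**
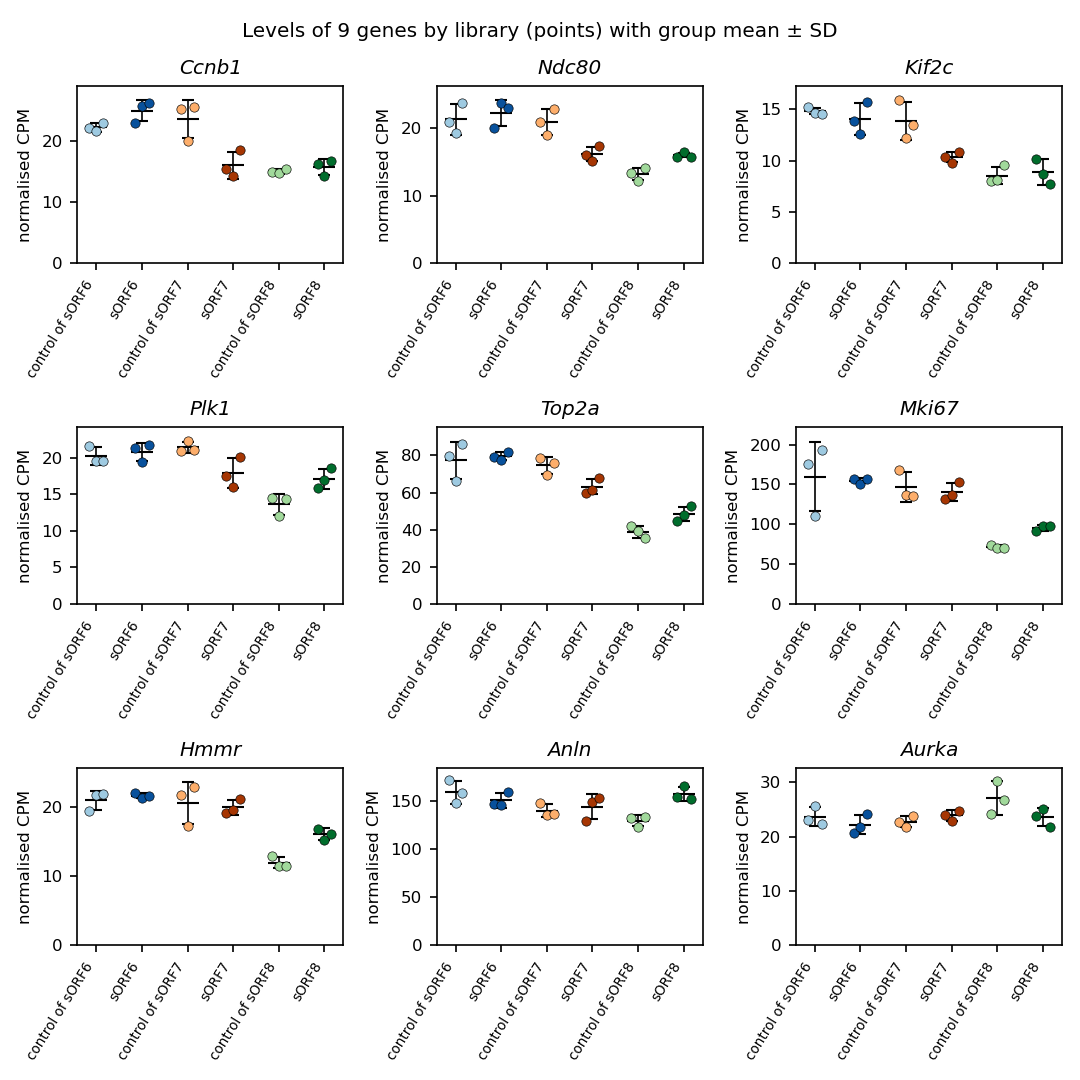
Normalised CPM of 9 of the genes in each library (points), with the mean (bar) and SD (whiskers) of each group of 3. Ccnb1, Ndc80 and Kif2c lie lower with sORF7 than with its control, Hmmr and Anln higher with sORF8 than with its control, and Mki67 has 1 low library in the control of sORF6.

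With sORF8, 2 of the 35 genes rose relative to its control virus, Hmmr by 34.3% and Anln by 21.4%, and none fell. Of all genes tested, 3.75% were called, 2.03% higher and 1.72% lower. The estimate was above 0 in 30 of the 35, with a median log2 fold change of 0.15, where the median of all genes was 0.00 and 49.7% lay below 0. The sums over the 35 genes did not overlap: 825.9, 848.7 and 849.6 normalised CPM with sORF8 against 748.7, 717.4 and 740.8 with the control. Of the 35, 15 were higher without overlap, where 11.6% of all genes were, and none was lower without overlap, where 12.9% were.

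Hmmr, a receptor for hyaluronan that also holds spindle poles together (gene ID 25460, chr10:25860700-25890653, minus strand, Rnor_6.0), had 16.9, 15.2 and 16.1 CPM with sORF8. Its control libraries had 12.9, 11.5 and 11.5, all lower. The log2 fold change was 0.43 ± 0.10 (SE, n = 3; edgeR adjusted p = 0.0167), and the call was lost without sORF8 replicate 1 (0.0813) or 3 (0.0514) or control replicate 2 (0.0747) or 3 (0.0816). Anln (gene ID 363031, chr8:23334644-23397402, minus strand) had 153.6, 164.9 and 151.9 CPM against 131.7, 122.6 and 133.3, again without overlap. Its log2 fold change was 0.28 ± 0.07 (SE, n = 3; edgeR adjusted p = 0.0201), and the call was lost without sORF8 replicate 2 (0.112), control replicate 1 (0.05) or control replicate 2 (0.102). Without control replicate 2 none of the 35 was called.

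Top2a and Plk1 came next. Top2a had 44.7, 48.1 and 52.6 CPM with sORF8 and 41.9, 39.5 and 35.4 with the control, and Plk1 had 15.8, 16.9 and 18.6 against 14.5, 12 and 14.3. Neither pair overlapped, and neither passed (edgeR adjusted p = 0.055 and 0.0601), although Top2a did with DESeq2 (0.00999) and in a fit of only these 6 libraries (0.0284). Mki67 had 91.3, 97.9 and 97.9 CPM against 74.5, 69.9 and 70.8, a gap wider than the spread of either group. Its log2 fold change was 0.42 ± 0.14 (edgeR adjusted p = 0.116), and 0.42 with an adjusted p of 3.56e-04 when only the 6 libraries were fitted, without the controls of sORF6 in which it varied most.

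Cyclin genes and Cdk1 were not called. Ccna2, cyclin A2, had 27.2, 30.3 and 28.7 CPM with sORF8 and 24.8, 25.3 and 24.6 with the control, without overlap (log2 0.21 ± 0.07, edgeR adjusted p = 0.128). Ccnb1 had 16.3, 14.2 and 16.7 CPM with sORF8 and 14.9, 14.8 and 15.5 with the control, and Cdk1 had 19.7, 17.5 and 18.8 against 17.8, 18.4 and 19.0, and both pairs overlapped. Aurkb, at 10.7, 9.43 and 12.5 against 9.96, 11.8 and 11.1, and Kif23, at 18.3, 21.5 and 22.3 against 21.7, 19.0 and 21.9, overlapped too. Aurka had the lowest estimate of the 35 (log2 -0.20 ± 0.08, edgeR adjusted p = 0.23), with 23.8, 25.1 and 21.8 against 24.1, 30.3 and 26.8 CPM.

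By role, the calls fell in spindle and motors (Hmmr, 1 of 6) and in cytokinesis (Anln, 1 of 6), and the other 6 roles had none. The role medians ran from 0.06 for centromere and kinetochore to 0.37 for the pair Top2a and Mki67. Cardiomyocyte markers moved the same way, with 7 of 12 higher and none lower and sums of 53008 to 54856 CPM against 43798 to 44250. Of all genes, 2.03% were higher and 1.72% lower. No fibroblast marker of 12 was called (7928 to 8316 against 7865 to 8034 CPM), nor any of the 18 interferon-stimulated genes. The part of the cardiomyocyte markers in the mitotic result was not tested.

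**Figure D3:**
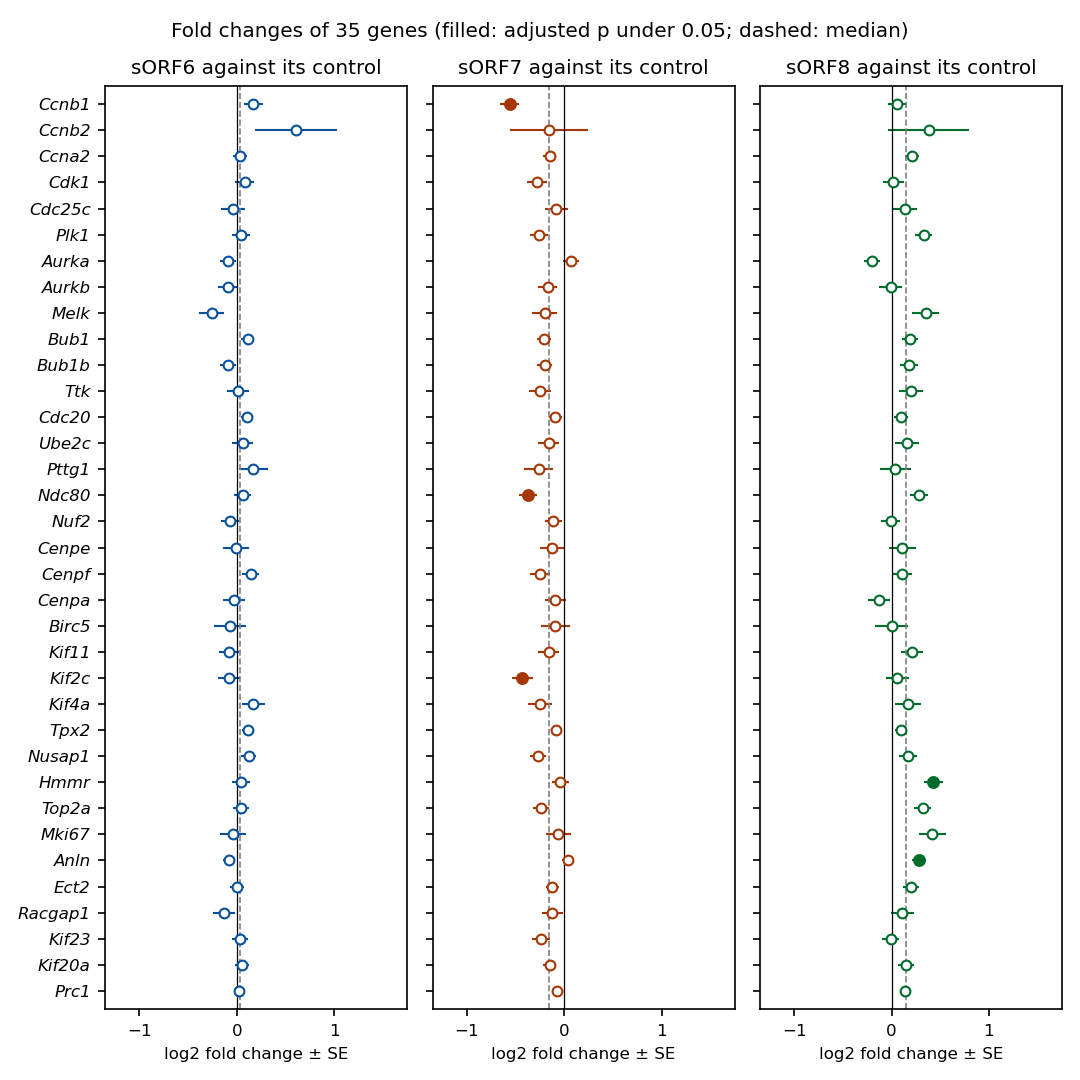
Log2 fold change of each of the 35 genes (rows) with its SE, for each sORF against its own control. Filled points passed an adjusted p of 0.05: none for sORF6, Ccnb1, Ndc80 and Kif2c for sORF7, and Hmmr and Anln for sORF8, and the dashed medians stand at 0.03, -0.16 and 0.15.

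Whether the sORFs differed from each other in these effects was tested as a difference of differences, each sORF with its own control. Each pair of these tests shares the libraries of 1 experiment. Between sORF7 and sORF8, 8 of the 35 genes differed, all with the lower effect for sORF7, where 7.72% of all genes were called, 3.92% in that direction and 3.80% in the other. The median difference was -0.32 log2, against -0.00 over all genes. The 8 genes cover the cyclins Ccnb1 and Ccna2, the kinase Plk1, the checkpoint kinase Bub1, the kinetochore protein Ndc80, the spindle proteins Nusap1 and Hmmr, and Top2a.

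The largest of these differences in log2 were those of Ndc80 (-0.65 ± 0.13, edgeR adjusted p = 0.00394) and Ccnb1 (-0.62 ± 0.14, 0.0105). For Ndc80 the effects were -0.37 with sORF7 and 0.28 with sORF8, and for Ccnb1 they were -0.56 and 0.06. Plk1 differed by -0.59 ± 0.13 (adjusted p = 0.00713) and Top2a by -0.56 ± 0.12 (0.0069), although neither gene was called in either comparison alone. Ccnb1, Plk1 and Top2a kept their call in all 18 alternatives, and Ndc80 lost it only in the 2 limma fits (up to 0.242). The remaining 4 were less secure: Ccna2 lost its call in 6 of the 18, and Bub1, Nusap1 and Hmmr in 10 each. Most of these losses came from leaving out 1 library. For Ccna2 these were sORF7 replicate 2 and its control replicate 1, sORF8 replicates 2 and 3, and the sORF8 controls 1 and 3 (adjusted p up to 0.0796). Bub1, Nusap1 and Hmmr all lost it without sORF7 replicate 1 or 2, control replicate 1 or 3 of sORF7, or control replicate 3 of sORF8 (up to 0.0879, 0.0855 and 0.0851 over all alternatives). Bub1 and Nusap1 lost it without sORF8 replicate 2 as well, Nusap1 and Hmmr without sORF8 replicate 1 or 3, and Bub1 and Hmmr without sORF8 control replicate 2.

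Between sORF6 and sORF7, 3 of the 35 differed, all with the higher effect for sORF6, where 11.2% of all genes were called, 4.88% in that direction and 6.27% in the other. They were Ccnb1 (0.73 ± 0.14, edgeR adjusted p = 0.00143), Ndc80 (0.43 ± 0.13, 0.0302) and Nusap1 (0.38 ± 0.11, 0.0339). Ccnb1 kept its call in all 18 alternatives, and Ndc80 and Nusap1 lost theirs in 10 and 11. Both lost it without sORF6 replicate 2 or 3, sORF7 replicate 1 or 2, the sORF6 controls 1 or 2, or the sORF7 controls 1 or 3 (adjusted p up to 0.14 and 0.117 over all alternatives). Between sORF6 and sORF8 only Anln differed (-0.36 ± 0.09, edgeR adjusted p = 0.0327), where 3.69% of all genes were called, 2.82% lower and 0.868% higher. It had an effect of -0.08 with sORF6 and 0.28 with sORF8, and the call was lost in 10 of 18 alternatives. These included leaving out sORF6 replicate 1 or 2, its controls 1 or 3, sORF8 replicate 1 or 2, or its controls 1 or 2 (up to 0.0981).

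The widest contrast in these genes lay between the control groups. In the control of sORF8 the mitotic genes were lower than in the controls of sORF6 and sORF7. A joint test of the 3 control groups called 32 of the 35, where 38.4% of all genes were called, and the exceptions were Ccnb2, Cdc25c and Cenpa, the centromeric histone. Against the control of sORF6, 30 were lower and none higher, where 19.5% and 18.9% of all genes were, with a median of -0.64 log2. Against the control of sORF7, 30 were lower and 1, Aurka, was higher, where 19.1% and 18.6% were, with a median of -0.65. The controls of sORF6 and sORF7 differed in none of the 35, where 1 gene of the 14870, Cdkn1a, was called (0.00672%).

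In 29 of the 35 all 3 sORF8 control libraries lay below all 6 other control libraries, where 18.3% of all genes did. Melk had 7.10, 4.47 and 7.46 CPM there against 12.4 to 15.2 in the other controls, and Mki67 had 74.5, 69.9 and 70.8 against 110.5 to 192.8. The mean over the sORF8 controls differed by -55.1% for Melk and -53.1% for Mki67 from that of the other controls. Ect2, the exchange factor that activates RhoA at the cleavage furrow, had 15.3 ± 0.309 CPM in the control of sORF8 (SD, n = 3) against 28.9 ± 1.77 and 27.6 ± 2.95. Its log2 difference was -0.92 ± 0.07 to the control of sORF6 (edgeR adjusted p = 1.52e-08). Anln was called lower than the control of sORF6 and not than that of sORF7 (log2 -0.30 ± 0.07 to the control of sORF6 with adjusted p = 0.00124, and -0.11 ± 0.07 with 0.2).

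Aurka went the other way. It had 24.1, 30.3 and 26.8 CPM in the control of sORF8 against 23.0, 25.6 and 22.3 and 22.6, 21.8 and 23.8 in the other controls, overlapping ranges. Its joint adjusted p was 0.0463, and the call was lost with DESeq2, with no filter, with the replicate number as a block and without 6 of the 9 control libraries, namely sORF6 controls 1 and 3, sORF7 controls 1 and 2 and sORF8 controls 2 and 3. Pttg1, the securin gene, lost its joint call without sORF8 control 1, and Ndc80 in the limma fits. In every alternative 31 or 32 of the 35 were called.

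The sORF8-infected libraries shared this lower level. In 19 of the 35 genes all 6 libraries of the sORF8 experiment lay below all 12 others, where 7.51% of all genes did, and in none did they lie above, where 7.43% did. For Top2a the 6 spanned 35.4 to 52.6 CPM and the 12 spanned 60.0 to 86.1. For Aurkb they spanned 9.43 to 12.5 and 15.4 to 20.3, and for Ect2 15 to 18 and 24.2 to 30.2. Other measures moved with this contrast: depth was lower in the 6 libraries, all 12 cardiomyocyte markers were called in the joint test, and so were all 18 interferon-stimulated genes. Cardiomyocyte markers summed to 43798 to 44250 CPM in the control of sORF8 against 64302 to 72077 in the others. Against the 38.4% of all genes called in the joint test, markers of other cells were called in 4 of 12 for fibroblasts, 5 of 10 for smooth muscle and pericytes, 2 of 9 for endothelium, 2 of 8 for leukocytes and 2 of 9 for epicardium. Experiment, virus and any difference in cells or handling cannot be told apart here.

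**Figure D4:**
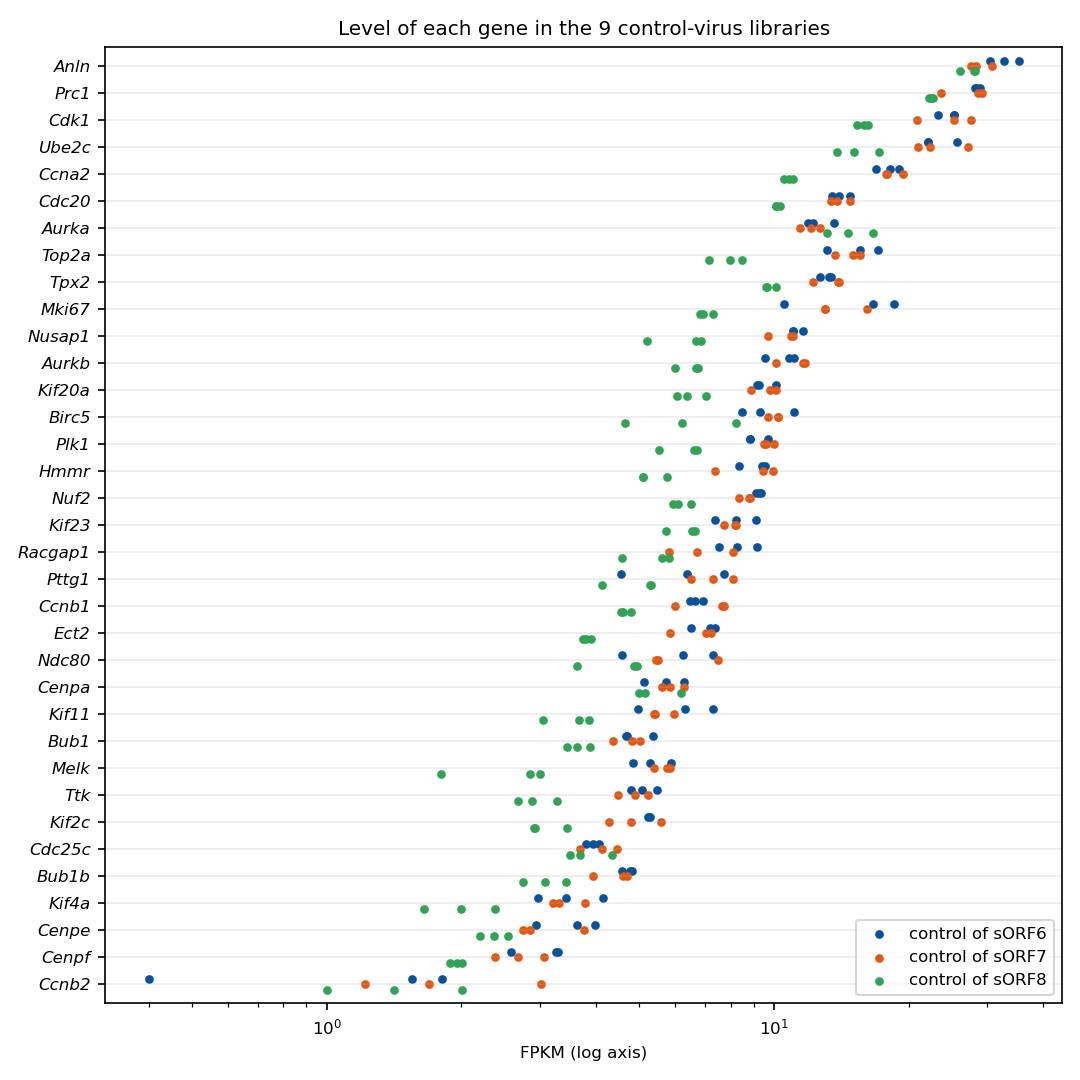
FPKM (log axis) of each of the 35 genes (rows, by mean level) in the 9 control-virus libraries, coloured by group. The control of sORF8 lies to the left of the other controls in most rows, but not for Aurka, Cenpa, Cdc25c or Ccnb2.

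The rest of the division machinery was read from lists of genes outside the 35. Of 58 other mitotic genes tested, 1 was lower with sORF6 (Gtse1, log2 -0.29 ± 0.07, edgeR adjusted p = 0.0204), where 2.88% of all genes were. With sORF7, 2 were lower, the microtubule polymerase Ckap5 (-0.19 ± 0.04, adjusted p = 0.0122) and the condensin subunit Ncapd2 (-0.22 ± 0.06, 0.0258), a share near the 3.66% of all genes that were lower. With sORF8, 7 were higher and none lower, led by Hjurp, the chaperone that places Cenpa at centromeres (0.49 ± 0.08, adjusted p = 0.002), Ncapd2 (0.26 ± 0.06, 0.0201) and the kinetochore gene Kntc1 (0.37 ± 0.09, 0.0237), where 2.03% of all genes were higher. Estimates lay below 0 in 30 of the 58 with sORF6 (median log2 -0.01) and in 48 with sORF7 (-0.14). With sORF8 they lay above 0 in 50 (median 0.17). Of all genes, 49.7%, 50.7% and 49.7% lay below 0 in these comparisons. In the joint test of the controls 49 of the 58 were called, where 38.4% of all genes were.

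Genes of DNA replication were counted in the same way, and their counts were not tested against those of the mitotic genes. Of 35 tested, 6 were lower and none higher with sORF6, where 2.88% of all genes were lower, among them Mcm6 (log2 -0.35 ± 0.04, edgeR adjusted p = 2.02e-05) and Mcm3 (-0.32 ± 0.05, 5.49e-04), subunits of the replicative helicase. With sORF7, 3 were higher and none lower, again Mcm3 (0.21 ± 0.05, adjusted p = 0.0123) and Mcm6 (0.15 ± 0.04, 0.0319), with the flap endonuclease Fen1 (0.22 ± 0.06, 0.0426), where 4.12% of all genes were higher. With sORF8, 4 were higher and none lower, led by the ribonucleotide reductase subunit Rrm2 (0.32 ± 0.06, adjusted p = 0.00597), where 2.03% of all genes were higher. Estimates of the 35 replication genes lay below 0 in 33 with sORF6 (median log2 -0.15). They lay above 0 in 22 with sORF7 (0.03) and in 32 with sORF8 (0.13). Of the 8 cyclins and CDKs of G1 and S phase, Cdk2 (-0.25 ± 0.06, 0.0123) and Ccne2 (-0.39 ± 0.09, 0.0216) were lower with sORF6. None of the 8 was called with sORF7 or sORF8, where 7.77% and 3.75% of all genes were. The interferon-stimulated genes and the leukocyte markers Adgre1 and Itgam, given above, were lower in the same sORF6 libraries, and their part in these falls was not tested.

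Of 7 CDK inhibitors, Cdkn1a, which encodes p21, was called in all 3 comparisons and no other was called in any. Of all genes, 3.85% were called with sORF6, 7.77% with sORF7 and 3.75% with sORF8. Cdkn1a had 190.1, 193.0 and 193.6 CPM with sORF6 against 237.9, 237.6 and 236.4 (log2 -0.30 ± 0.03, edgeR adjusted p = 8.17e-06). With sORF7 it had 321.1, 327.8 and 320.2 against 267.3, 284.2 and 281.4 (0.22 ± 0.03, adjusted p = 3.57e-04). With sORF8 it had 209.5, 196.9 and 210.1 against 230.9, 222.7 and 235.6 (-0.16 ± 0.03, adjusted p = 0.0104). Its effect differed between sORF6 and sORF7 (-0.52 ± 0.05, adjusted p = 3.82e-07) and between sORF7 and sORF8 (0.38 ± 0.05, 5.53e-05), and the difference between sORF6 and sORF8 did not pass (-0.14 ± 0.05, 0.127). Cdkn1a was higher where 3 mitotic members fell, and lower both where 2 rose and where none was called. Between the controls it was higher for sORF7 than for sORF6 (0.23 ± 0.03, edgeR adjusted p = 0.0387), where none of the 35 members was called. It was lower in the control of sORF8 than in that of sORF7 (-0.27 ± 0.03, 3.33e-06), where 30 members were lower and 1 higher. Against the control of sORF6 it was not called there (-0.05 ± 0.03, 0.307), and 30 members were lower. The link of Cdkn1a to the mitotic genes was not tested.

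Of 20 genes of E2F, DREAM and MuvB, 1 was lower with sORF6, where 2.88% of all genes were. None was called with sORF7, where 7.77% of all genes were, and 2 were higher with sORF8, where 2.03% were. Mybl2, the B-MYB subunit, had 24.8 ± 1.26 CPM with sORF6 against 33.5 ± 2.17 (SD, n = 3; log2 -0.44 ± 0.06, edgeR adjusted p = 2.27e-04). It had 41.4 ± 1.34 against 39.2 ± 2.17 with sORF7 (adjusted p = 0.53), and 24.4 ± 1.65 against 20.3 ± 0.456 with sORF8 (0.0343). The effect on Mybl2 differed between sORF6 and sORF7 (-0.51 ± 0.09, edgeR adjusted p = 5.81e-04) and between sORF6 and sORF8 (-0.70 ± 0.09, 1.03e-04). Its difference between sORF7 and sORF8 did not pass (-0.19 ± 0.09, 0.248). E2f1 was called higher with sORF8, at 22.7 ± 1.97 against 17.0 ± 1.27 CPM (log2 0.42 ± 0.09, edgeR adjusted p = 0.00933). Its effect differed between sORF7 and sORF8 (-0.52 ± 0.12, adjusted p = 0.00967), while the difference between sORF6 and sORF8 did not pass (-0.41 ± 0.12, 0.0632). Foxm1, the transcription factor of the G2 and M programme, was called in none (log2 0.04 ± 0.07, -0.17 ± 0.07 and 0.16 ± 0.08 for sORF6, sORF7 and sORF8), nor was Lin54, the subunit that reads the CHR. Across the controls Foxm1, Mybl2 and E2f1 were lower in the control of sORF8, by -0.71 ± 0.07, -0.72 ± 0.07 and -0.78 ± 0.08 log2 from the control of sORF6, and Lin54 was not called (joint adjusted p = 0.604).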

How the data were processed

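RNA-seq of 18 libraries was analysed, in 6 groups taken from the sample titles. The authors deposited an estimated count and an FPKM value per gene and library for 19880 genes, made by mapping and quantification that the submitters' processing notes name by tool. Tools named in the submitters' processing notes, without roles, include HISAT2 2.0.4, RSEM 1.2.12 and DESeq2 1.4.5, with genome build Rnor_6.0. FPKM as deposited by the authors were used to compare levels between genes and, with pseudocounts of 1 and 0.1, in alternative limma fits.

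Counts were rounded and tested with edgeR 4.0.16 (R 4.3.3, limma 3.58.1), using filterByExpr, TMM and a quasi-likelihood fit with 1 mean per group over all 18 libraries. Adjusted p is two-sided and Benjamini-Hochberg over 14870 genes, with 0.05 as the threshold. Contrasts set each sORF against its own control, the effects with each other as interactions, and the control groups by a joint F test. RSEM divides reads among similar transcripts, so near-identical copies may share them. Total counts per library, 15697177 to 17658137, set the counting precision.

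Alternatives were DESeq2 1.42.0, RLE scaling, no filter on low counts, limma on FPKM, a replicate block, only the 6 libraries of an experiment and each replicate left out. Fits without the sORF8 experiment and pairwise contrasts of the controls were added after seeing the data. The members and lists were chosen with earlier results of these data known. Values in every library were given for Ccnb1, Cdk1, Plk1, Aurkb, Top2a, Mki67, Kif23, Anln and the 4 members with the smallest p per comparison. Outside the members, up to 3 called genes per list and comparison were eligible to be named, plus Foxm1, Mybl2, Cdkn1a, E2f1 and Lin54. The library values of Aurka were added after they were seen. Promoter windows and their letters come from RefSeq on GRCr8, a build other than that of the counts, and were matched by gene ID and symbol. Bub1 and Cdc20 lie on the minus strand there, but on the plus strand in the Rnor_6.0 positions of the counts. Proteins were not used here.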

Additional observations from a re-analysis of the deposited data

Results flagged for a closer look

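Flagged here are genes whose response differed between experiments by a test of the difference itself, an edgeR interaction contrast over all 18 libraries adjusted over 14870 genes. For sORF6 against sORF7 these were Ccnb1, with a difference in log2 effect of 0.73 (adjusted p = 0.00143), Ndc80 with 0.43 (0.0302) and Nusap1 with 0.38 (0.0339). For sORF6 against sORF8 it was Anln, with -0.36 (adjusted p = 0.0327). For sORF7 against sORF8 these were Ndc80 with -0.65 (adjusted p = 0.00394), Ccnb1 with -0.62 (0.0105), Plk1 with -0.59 (0.00713) and Top2a with -0.56 (0.0069). Hmmr with -0.47 (0.0337), Nusap1 with -0.43 (0.0329), Bub1 with -0.40 (0.0277) and Ccna2 with -0.36 (0.0275) followed. Each sORF had its own control libraries, so a difference between experiments also holds any difference between those controls. Dixon's gap test for a single outlying library was not run on groups of 3.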

How the results depend on the processing

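Counts of called members are few and moved with single libraries. Leaving out 1 library at a time gave 1 to 5 calls for sORF7 (3 in the full fit), 0 to 1 for sORF8 (2), 1 to 6 for sORF6 against sORF7 (3), 0 to 2 for sORF6 against sORF8 (1) and 4 to 11 for sORF7 against sORF8 (8). For sORF6 alone it was 0 in every alternative, and the joint test of the controls stayed at 31 or 32. Limma on log2(FPKM + 1) and on log2(FPKM + 0.1) each gave 1 call for sORF7, 1 for sORF6 against sORF7, 0 for sORF6 against sORF8 and 4 for sORF7 against sORF8. A fit of only its 6 libraries gave 4 calls for sORF8, and the causes of these shifts were not tested. Counting each of the 35 genes in each of these 6 comparisons of sORFs as 1 result, 12 of the 17 called results lost their call in at least 1 alternative, 19 others gained one in at least 1, and none changed sign where called. With an arm of 2 libraries the spread was taken from all groups.

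With the replicate number as a block, sORF8 had 4 called members in place of 2, adding Top2a (adjusted p = 0.0464) and Plk1 (0.0478), and Aurka was lost from the joint test. No other call of a member changed. Deviations of libraries with the same number correlated between -0.022 and 0.178 over 12512 genes, and not every library correlated best with its own number, so the numbers were not taken to pair the samples.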
